A study of Mus musculus with 4 samples.

Results

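Nuclei of the mouse spinal dorsal horn that carry the transcript of the neuronal glycine transporter Slc6a5 are described here. A kept nucleus had 300 or more genes detected and less than 5% of its UMIs (unique molecular identifiers, each 1 captured transcript) from mitochondrial genes. Among kept nuclei, a chosen one had 2 or more Slc6a5 UMIs, none of the excitatory transporter Slc17a6, fewer than 2 of Npy, fewer than 2 of Pdyn and Gal together, and fewer than 4 over the 6 genes Nxph1, Pax8, Sall3, B130024G19Rik, Pdzd2 and Nox4. The rule found 1245 nuclei among 112194 kept nuclei (112746 deposited barcodes), and they are called glycinergic nuclei by that rule. The rule reads measured counts, so the levels of its own genes are a description and carry no test.

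The study compares mice with and without Gpr37l1, an orphan receptor best known from astrocytes, either naive or 1 day after spared nerve injury (SNI), in which branches of the sciatic nerve are cut to produce lasting pain. There are 4 single-nucleus libraries, 1 per group: Gpr37l1-/- mice after SNI (KO SNI), Gpr37l1+/+ mice after SNI (WT SNI), naive Gpr37l1-/- mice (KO naive) and naive Gpr37l1+/+ mice (WT naive). The knockout is not limited to a cell type by the labels, and the sources used here do not give the strain, the age or the number of animals behind a library. Groups follow the sample titles and library names; a separate treatment field calls the KO naive library injured and the WT SNI library naive, so each statement on genotype or injury holds for the titles only. With 1 library per group, genotype and injury cannot be told apart from the library, no test of them was possible, and their 95% intervals cover counting error only. A contrast between classes of nuclei was measured in each of the 4 libraries and could be tested over them.

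Glycinergic neurons of the spinal cord release glycine, often together with GABA, and inhibit their targets through chloride channels. The transporter encoded by Slc6a5 returns glycine to the nerve terminal, Slc32a1 encodes the vesicular transporter that loads both glycine and GABA, and Gad1 and Gad2 encode the enzymes that make GABA. In the dorsal horn such neurons are known for gating touch input, and Pax2 marks the inhibitory lineage there. In bulk sums of nuclei, fewer transcripts per nucleus and fewer nuclei that hold the transcript cannot be told apart.

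The gene that set the rule and the gene that heads the 12 named for the largest tested rise are shown by the 250 bases before an annotated transcript start (RefSeq, GRCm38.p6). Slc6a5 lies on chromosome 7, on the plus strand, and the stretch is chr7:49910049-49910298. Kcns3, a silent subunit that modifies voltage-gated potassium channels, lies on chromosome 12, on the minus strand, and the stretch is chr12:11150843-11151092.
Slc6a5: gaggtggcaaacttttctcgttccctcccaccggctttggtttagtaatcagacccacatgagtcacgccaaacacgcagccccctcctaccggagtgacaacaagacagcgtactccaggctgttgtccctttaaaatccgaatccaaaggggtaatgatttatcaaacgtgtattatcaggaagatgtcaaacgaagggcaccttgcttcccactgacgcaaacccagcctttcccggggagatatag
Kcns3: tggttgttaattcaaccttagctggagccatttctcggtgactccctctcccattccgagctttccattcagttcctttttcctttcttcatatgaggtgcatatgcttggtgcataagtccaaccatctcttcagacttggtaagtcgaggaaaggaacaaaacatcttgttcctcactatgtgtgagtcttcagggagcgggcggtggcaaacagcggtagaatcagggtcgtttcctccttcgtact
The letters AAGGTCA, the half-site bound by oestrogen-related receptors, were searched on both strands of the promoters of the 24 genes chosen by the naming rule for the class contrast below, because Esrrg and Esrrb were higher in the glycinergic nuclei. Of the 12 genes that were higher, 5 had an entry and 0 held the letters, and of the 12 that were lower, 9 had an entry and 0 held them. They were held by 5.38% of all genes with a promoter entry, and no letter is capitalised above because none matched.

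The KO SNI, WT SNI, KO naive and WT naive libraries held 277, 340, 403 and 225 glycinergic nuclei with 786107, 1125006, 1165554 and 748651 UMIs in all. Their median depth was 2550, 2955, 2557 and 2841 UMIs per nucleus, against 1286, 1489, 1510 and 1446 UMIs over all kept nuclei. Gpr37l1 had 11 UMIs over all kept nuclei of the KO SNI library and 1293 in WT SNI, and 23 in KO naive and 495 in WT naive, so the genotype labels hold. Within glycinergic nuclei Gpr37l1 had 0 UMIs in KO SNI, 11 in WT SNI, 0 in KO naive and 0 in WT naive. No glycinergic nucleus shared its barcode with a glycinergic nucleus of another library, and 35 shared it with some other kept nucleus. Summed oligodendrocyte markers (7 genes, Mbp among them, none at 0) stood at 667.8, 834.7, 1074 and 674.5 CPM in the glycinergic nuclei. CPM are UMIs scaled to the total of the class in its library. In the other kept nuclei the same sum was 1985, 1968, 2083 and 2052 CPM. A doublet caller marked 10.8%, 12.1%, 12.7% and 2.67% of the glycinergic nuclei, against 9.34%, 9.82%, 11.3% and 3.03% of all kept nuclei. The 8 astrocyte markers summed to 52.1 to 112 CPM, with Gfap at 0 in WT naive. Of the 6 markers of cholinergic and motor neurons, Mnx1 was at 0 in every library, and their sum was 2.67 to 21.6 CPM.

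Most chosen nuclei stood at the edge of the rule. Exactly 2 Slc6a5 UMIs were counted in 202 of the KO SNI, 237 of the WT SNI, 322 of the KO naive and 172 of the WT naive glycinergic nuclei, and the highest count in 1 nucleus was 8, 16, 12 and 6. Just outside, 1402, 1670, 2670 and 993 nuclei met every other condition with 1 Slc6a5 UMI. Esrrg, an orphan nuclear receptor, was at 766, 697, 721 and 711 CPM in nuclei with 2 UMIs, and at 503, 468, 450.0 and 504 CPM in those with 1. Htr2c, a serotonin receptor, was at 1077, 867, 1007 and 878 CPM with 2 UMIs and at 762, 654, 686 and 739 CPM with 1. For both genes the levels at 3 or more UMIs were higher again in every library, at 865, 773, 865 and 867 CPM for Esrrg and 1408, 1397, 1262 and 1169 CPM for Htr2c. Gad1, Gad2 and Slc32a1 showed no such rise in every library. Slc32a1 was at 41.75, 45.3, 50.5 and 41.6 CPM with 1 UMI and 56.2, 31.4, 38.3 and 37.0 CPM with 2. With 3 or more it was at 27.8, 30.6, 32.9 and 43.1 CPM. Pax2 was higher with 2 UMIs than with 1 in every library, at 139, 110, 115 and 135 CPM against 103, 86.7, 92.0 and 115 CPM. A further 155, 193, 389 and 129 nuclei with 2 or more Slc6a5 UMIs were left out by the other conditions, of which 107, 110, 263 and 94 were left out by the 6-gene sum only.

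Glycinergic nuclei were 0.993% of kept nuclei in KO SNI (0.880% to 1.12%, exact binomial), 1.25% in WT SNI (1.13% to 1.39%), 1.08% in KO naive (0.973% to 1.18%) and 1.14% in WT naive (0.999% to 1.30%). The interval of WT SNI overlaps those of both naive libraries and lies just above that of KO SNI. A gate on UMIs moves with depth. The glycinergic nuclei were deepest in WT SNI, at a median of 2955 UMIs. All kept nuclei were deepest in KO naive, at a median of 1510 UMIs against 1489 in WT SNI. The part of depth in these shares was not tested. With every nucleus thinned to 1000 UMIs the rule gave 0.462%, 0.462%, 0.439% and 0.421%, and all 4 intervals overlap. Among kept nuclei with Slc17a6 at 0 and 2 or more UMIs of either Slc6a5 or the sum of Gad1, Gad2 and Slc32a1 (956, 1221, 1747 and 850 nuclei), they were 29.0%, 27.9%, 23.1% and 26.5%, and the interval of KO naive (21.1% to 25.1%) lies below those of both SNI libraries.

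The label was checked on the inhibitory genes that the rule does not use. Gad1 stood at 58.7, 37.5, 40.5 and 55.0 CPM in the glycinergic nuclei of KO SNI, WT SNI, KO naive and WT naive, against 16.6, 23.0, 27.7 and 12.7 CPM in 2211 excitatory nuclei with 2 or more Slc17a6 UMIs, a class added after the data were seen. The classes do not overlap. The Gad1 difference was 1.09 log2 units (SE 0.18, adjusted p = 1.17e-06; edgeR's quasi-likelihood test with Benjamini-Hochberg adjustment over all genes, library as a block, n = 4 libraries), where 7.98% of 10402 genes were higher and 7.6% lower. Pax2 was 2.31 log2 units higher than in excitatory nuclei (SE 0.14, adjusted p = 9.7e-25 by the same edgeR test), at 136, 104, 114 and 139.6 CPM against 16.6, 24.5, 33.2 and 14.7 CPM. Slc32a1 stood at 47.2, 31.3, 37.0 and 38.9 CPM against 18.3, 22.5, 31.9 and 24.5 CPM, and its difference of 0.59 log2 units (SE 0.17, edgeR adjusted p = 0.011) was not called without the KO SNI library (0.38) or without WT SNI (0.62), without the block on library (0.61) or by DESeq2 (0.64).

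**Figure D1:**
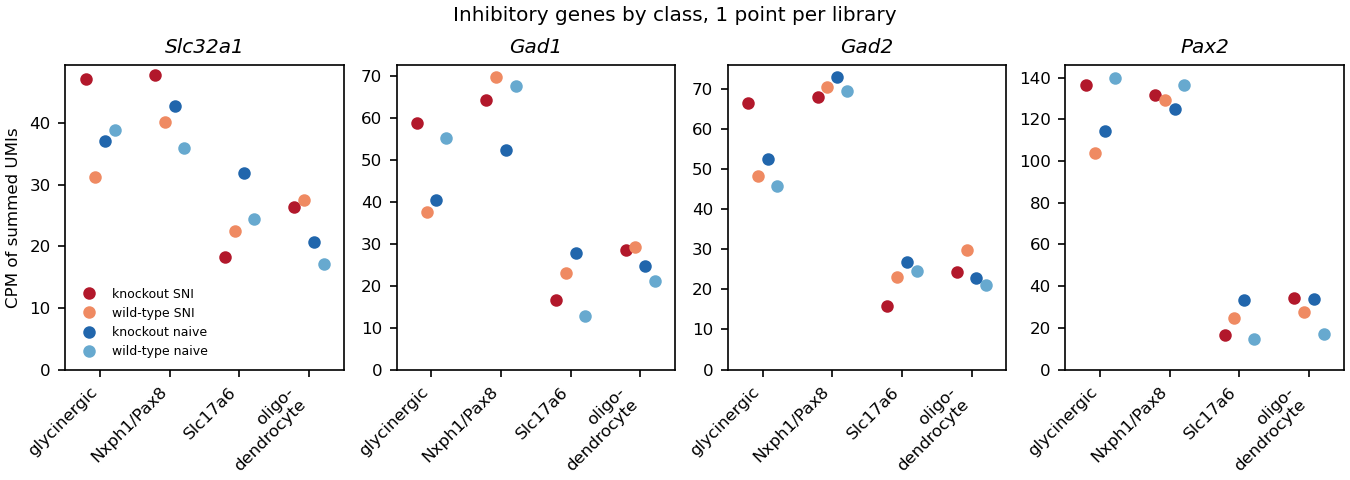
Level of inhibitory genes (CPM of summed UMIs, linear axis) in glycinergic nuclei, Nxph1 and Pax8 nuclei with no gate on GABA genes, Slc17a6 nuclei and oligodendrocyte nuclei, with 1 point per library in the order KO SNI, WT SNI, KO naive and WT naive. Pax2 in glycinergic nuclei lies between 104 and 139.6 CPM, above every library of the Slc17a6 nuclei (14.7 to 33.2 CPM).

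Against 11374 nuclei with 4 or more UMIs of the 6 genes, Slc17a6 at 0 and fewer than 2 Slc6a5 UMIs, and no gate on GABA genes (also a class added after the data were seen), Gad1 was lower by edgeR, with a log2 difference of -0.43 (SE 0.12, adjusted p = 0.00462), as was Gad2 (-0.42, SE 0.11, adjusted p = 0.00348), where 8.2% of 13380 genes were higher and 7.73% lower. Both calls were lost without the WT SNI library, where the differences were -0.27 and -0.37, without the block on library and by DESeq2. Pax2 (-0.10, SE 0.08) and Slc32a1 (-0.14, SE 0.13) did not pass the same edgeR test. Read per nucleus, 389 of the 1245 glycinergic nuclei (31.2%) had a UMI of Gad1, Gad2 or Slc32a1. That share was 33.2%, 30.9%, 28.3% and 34.7% by library. After thinning to 1000 UMIs, with 12, 12, 42 and 9 shallower nuclei left out, it was 16.2%, 12.5%, 12.5% and 14.4%. The thinned share was 18.2%, 17.6%, 16.1% and 16.3% in the class without a GABA gate, and 4.96%, 8.32%, 8.90% and 5.39% in the Slc17a6 nuclei. In WT SNI the interval of the Slc17a6 nuclei (6.18% to 10.9%) overlapped that of the glycinergic nuclei (9.12% to 16.6%). The same held in KO naive (6.91% to 11.2% against 9.24% to 16.3%). In KO SNI and WT naive these intervals did not overlap. In nuclei with 20 or more oligodendrocyte marker UMIs, which should lack these genes, the thinned share was 8.42%, 5.10%, 6.19% and 7.25% (median depths of 1905, 2393, 2272 and 1852 UMIs before thinning), so about that much of a share can be background. The rule's threshold of 2 Slc6a5 UMIs was met by 0%, 3.37%, 1.72% and 0% of those oligodendrocyte nuclei. It was met by 0.452%, 2.01%, 1.23% and 0.84% of the Slc17a6 nuclei. Among all 27113 kept nuclei of WT SNI, 374 had 2 Slc6a5 UMIs, 100 had 3, 23 had 4 and 36 had 5 or more. The oligodendrocyte share was above that of all kept nuclei in WT SNI and below it in the other libraries.

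The main contrast set the glycinergic nuclei against 2336 other inhibitory nuclei with no Slc6a5 UMI, no Slc17a6 UMI and 2 or more UMIs of Gad1, Gad2 and Slc32a1 together (461, 607, 840 and 428 nuclei). The glycinergic nuclei had higher levels of the potassium channel subunit Kcns3, the nuclear receptor Esrrg, the serotonin receptor Htr2c and the adrenergic receptor Adra1a, and lower levels of the glutamate receptors Gria1 and Grm5 and the muscarinic receptor Chrm3. Genes in the gate of either class were left out. Of 10256 genes tested, edgeR called 1061 higher (10.3%) and 1137 lower (11.1%) at an adjusted p under 0.05, against a median log2 difference of -0.0126 over all genes tested. The median depth was 1811, 2205, 2162.5 and 2211.5 UMIs in the other inhibitory nuclei, below that of the glycinergic nuclei in every library. With all nuclei thinned to 1000 UMIs the counts were 360 higher and 365 lower.

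Kcns3 was at 70.2, 44.7, 25.8 and 48.3 CPM in glycinergic nuclei, against 10.6, 9.43, 8.46 and 15.2 CPM in the other inhibitory nuclei. It was the largest rise among the 12 genes so chosen, at 2.06 log2 units (SE 0.21, adjusted p = 2.52e-14 by edgeR). Rbm20, an RNA-binding regulator of splicing, was at 135, 84.8, 102 and 89.96 CPM against 29.8, 28.9, 35.4 and 22.8 CPM (log2 difference 1.75, SE 0.13, edgeR adjusted p = 3.51e-21). Lgr5, a receptor for R-spondins that strengthens Wnt signalling, was at 125, 122, 145 and 117 CPM against 45.7, 43.4, 59.8 and 45.6 CPM (1.38, SE 0.11, edgeR adjusted p = 1.74e-19). For these 3 genes the classes do not overlap. Piezo2, a mechanically gated cation channel, was at 35.7, 62.5, 76.6 and 53.7 CPM against 18.1, 15.7, 22.9 and 15.2 CPM (1.71, SE 0.17), and was not called after thinning to 1000 UMIs (0.89). Phldb2, which anchors microtubules at the cell cortex, rose by 1.54 (SE 0.22), Eps8, an actin-capping protein, by 1.36 (SE 0.19) and Sntb1, a syntrophin of the dystrophin complex, by 1.32 (SE 0.19). Most UMIs of Piezo2, Eps8 and Sntb1 came from a group of 34 nuclei, described below, outside which the glycinergic nuclei had 16.4, 16.2 and 9.04 CPM, against means of 17.97, 17.8 and 18.2 CPM in the other inhibitory nuclei. Gm15270 (1.97), B230217J21Rik (1.42), Ccdc171 (1.36) and Poln, a DNA polymerase (1.35), were also higher.

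Among the 12 genes chosen for the largest falls, Ankfn1 was at 93.1, 100.9, 133 and 76.5 CPM in glycinergic nuclei, against 366, 338, 362 and 329 CPM in the other inhibitory nuclei (-1.74, SE 0.08, edgeR adjusted p = 1.24e-34). Stac, an adaptor of L-type calcium channels, was at 66.3, 60.7, 56.0 and 79.2 CPM against 219, 194, 213 and 243 CPM (-1.74, SE 0.10, edgeR adjusted p = 1.47e-29). The highest glycinergic library of both genes lies below the lowest library of the other class. Also lower were Slc24a4, a sodium, calcium and potassium exchanger (-2.02), Plch1, a phospholipase C (-1.94), the vesicle proteins Syt10 (-1.75) and Baiap3 (-1.75), the cadherin Cdh3 (-1.73), the glypican Gpc3 (-1.63), the kinase Hunk (-1.60), the chromatin protein Hmga2 (-1.60) and the cation channel Trpc7 (-1.5). All of these genes moved 1 way in every library, which the naming rule required. When the other class was held to 4 or more UMIs of Gad1, Gad2 and Slc32a1, which leaves fewer nuclei, the following higher genes kept their direction without passing the test: Kcns3, Gm15270, Phldb2, Eps8, Ccdc171, Poln and Sntb1, the last at 0.67.

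**Figure D2:**
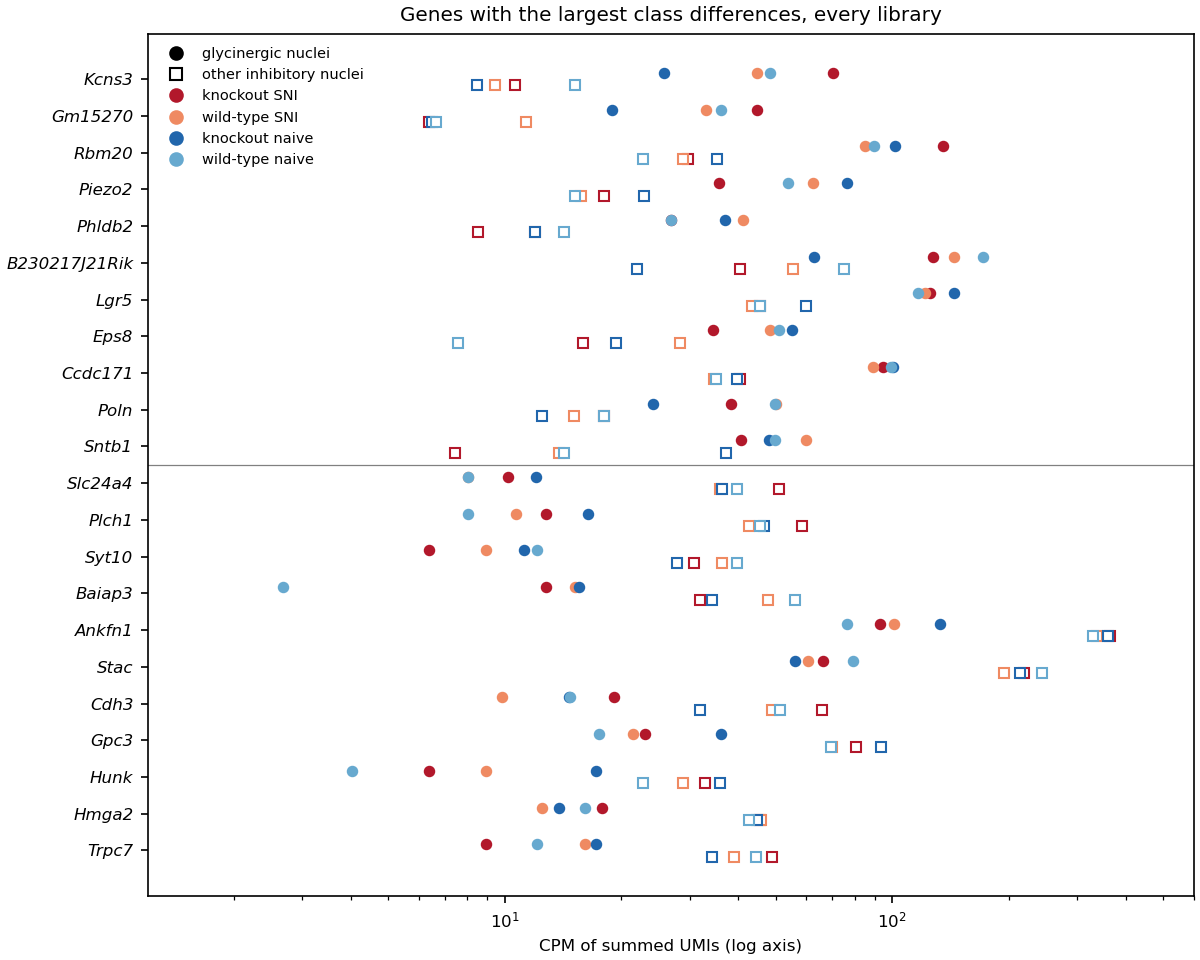
Level (CPM of summed UMIs, log axis) of the genes named in the class contrast, higher ones above the line and lower ones below it, in glycinergic nuclei (filled circles) and other inhibitory nuclei (open squares), with 1 colour per library. The circles of Kcns3, from 25.8 to 70.2 CPM, lie right of its squares (8.46 to 15.2 CPM), and the circles of Ankfn1 (76.5 to 133 CPM) lie left of its squares (329 to 366 CPM).

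Of 6 tested members of the list of glycine and GABA handling genes, 1 was higher and 1 lower, beside 10.3% higher and 11.1% lower over all genes. The higher one, Abat, which degrades GABA, was at 167, 188, 180 and 176 CPM against 147, 146, 147 and 148 CPM (0.29, SE 0.08, edgeR adjusted p = 0.00561). Gphn, the scaffold of glycine and GABA receptors, did not pass the test (-0.02, SE 0.05). Among 17 receptor and chloride transport genes 3 were higher and 8 lower, with a median of -0.22 against -0.0126 over all genes. The glycine receptor subunits Glra3 (-0.94, SE 0.12) and Glra2 (-0.88, SE 0.18) and the GABA receptor subunits Gabrg1 (-0.71, SE 0.23) and Gabra4 (-0.63, SE 0.20) fell furthest. Glra3 was at 45.9, 52.7, 61.1 and 77.9 CPM against 111, 99.3, 128 and 117 CPM, without overlap between the classes.

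Among 27 transcription factors tested, 6 were higher and 10 lower, beside 10.3% higher and 11.1% lower over all genes. Esrrg was at 799.8, 729, 761 and 759 CPM against 346, 317, 317 and 375 CPM (1.19, SE 0.06, edgeR adjusted p = 1.14e-33), and the related receptor Esrrb at 11.5, 12.5, 12.1 and 12.1 CPM against 4.25, 5.03, 1.99 and 1.90 CPM (1.87, SE 0.39). Both receptors were higher in every library. Gbx1, a homeodomain factor of dorsal inhibitory neurons, was lower (-1.99, SE 0.35) at 2.69 to 6.25 CPM against 13.2 to 21.8 CPM, and Pax2 was lower by -0.45 (SE 0.09) where the other class is itself chosen on inhibitory genes. Of 14 tested subtype markers 0 were higher and 7 lower, with a median of -0.42: Cdh3, Kit (-1.5, SE 0.23), the natriuretic peptide gene Nppc (-1.00, SE 0.27) and the enkephalin gene Penk (-0.65, SE 0.13) fell furthest. The other class keeps the subtypes that the rule takes out of the glycinergic nuclei. Falls of subtype markers, and differences of other genes in this contrast, can follow from that choice, which was not tested. Ankfn1, for instance, was at 1274, 1061, 1250 and 1696 CPM in the dynorphin or galanin nuclei compared below. Penk was at 30.6, 58.0, 43.0 and 53.7 CPM against 61.7, 92.4, 60.8 and 82.6 CPM, lower in each library. None of the 9 markers of ventral inhibitory types reached the level needed for the test.

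Ion channels and receptors split by member. Of 31 excitability genes 7 were higher and 11 lower, beside 10.3% higher and 11.1% lower over all genes. The calcium channel gene Cacna1e was at 287, 273, 311 and 293 CPM in glycinergic nuclei and 549, 565, 650 and 593 CPM in other inhibitory nuclei (-1.01, SE 0.06, edgeR adjusted p = 9.68e-27), and Kcnc2 (-0.97, SE 0.06), Kcnd3 (-0.88, SE 0.10) and Scn3a (-0.84, SE 0.09) fell as well. Kcna1, a potassium channel of axons named here after its values were seen, was at 244, 243, 178 and 281 CPM against 144, 158, 114 and 129 CPM (0.78, SE 0.08). Of 22 glutamate receptor genes 5 were higher and 8 lower. The AMPA receptor subunit Gria1 was at 337, 352, 380 and 353 CPM against 772, 664, 735 and 683 CPM (-0.99, SE 0.06), while Gria3 was at 925, 936, 891 and 1039 CPM against 607, 599.8, 608 and 716 CPM (0.59, SE 0.05). The metabotropic receptors Grm5 (-0.87, SE 0.05) and Grm7 (-0.70, SE 0.05) were lower.

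Of 16 receptors for modulatory transmitters 4 were higher and 1 was lower, and these included the most abundant transcript of the list. Over all genes 10.3% were higher and 11.1% lower. Htr2c was at 1186, 1072, 1077 and 964 CPM in glycinergic nuclei, against 684, 559, 665 and 595 CPM in other inhibitory nuclei (0.79, SE 0.05, edgeR adjusted p = 2.94e-24). The adrenergic receptor Adra1a was at 99.5, 105, 116 and 99.4 CPM against 40.4, 52.2, 47.8 and 43.7 CPM (1.19, SE 0.12, edgeR adjusted p = 6.7e-15), again without overlap. The delta opioid receptor Oprd1 was at 33.2, 20.5, 12.9 and 21.5 CPM against 10.6, 10.1, 6.47 and 9.49 CPM (1.21, SE 0.26). Chrm3, a muscarinic receptor, fell to 264, 272, 253 and 230 CPM in glycinergic nuclei, against 560, 537, 514 and 525 CPM (-1.05, SE 0.07). Of 7 tested genes of perineuronal nets, the coats of matrix around many inhibitory neurons, 3 were higher and 2 lower. The link protein Hapln1 was at 33.2, 12.5, 8.61 and 28.2 CPM against 4.25, 3.77, 5.48 and 9.49 CPM (1.68, SE 0.31) and the lectican Bcan at 100.8, 99.1, 91.3 and 84.6 CPM against 41.5, 52.8, 52.8 and 39.9 CPM (0.97, SE 0.12), while Ptprz1 (-1.24, SE 0.10) and Vcan (-0.64, SE 0.24) were lower.

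Lists that follow cell state or admixed RNA are read against the 10.3% higher and 11.1% lower over all genes. All 7 oligodendrocyte markers were lower in glycinergic nuclei (median -0.73), from -0.57 for Cldn11 to -0.89 for Mbp, as were 10 of 20 cytoplasmic transcripts (median -0.28), 7 of 12 heat shock genes (median -0.36) and 4 of 7 axon injury genes, of which Gap43 fell furthest (-0.83, SE 0.12). Of 5 astrocyte markers 2 were lower, of 3 precursor markers 2 were lower, of 6 microglial markers 1 was higher and 2 lower and of 6 excitatory markers 4 were lower. Of 18 clock and glucocorticoid genes 2 were higher and 2 lower, near the share over all genes. Of 8 general neuron genes 3 were higher and 2 lower, and 0 of 3 immediate early genes and 0 of 1 endothelial marker passed the test. The part of these transcripts in the other class differences was not tested. When nuclei with 5 or more astrocyte and oligodendrocyte marker UMIs were left out of both classes, a setting chosen after the data were seen, all genes named in the class contrast kept their calls, at 2.10 for Kcns3 and -1.94 for Ankfn1.

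Against the 3 narrower inhibitory classes, the same glycinergic nuclei gave the following values, which share the glycinergic libraries and are therefore set side by side without a test between them. Of 7331 genes tested against 261 nuclei with Npy, 365 were higher (4.98%) and 450 lower (6.14%) by edgeR. Without WT SNI these counts were 238 and 241, and without KO naive 188 and 264. Against 118 nuclei with dynorphin or galanin, 299 of 6731 genes were higher (4.44%) and 264 lower (3.92%); without WT SNI, KO naive or WT naive the higher count was 174, 175 or 182, and without WT SNI the lower count was 136. Against 3937 nuclei of the Nxph1 and Pax8 class, 1041 of 11212 genes were higher (9.28%) and 991 lower (8.84%).

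Esrrg was higher than in all 3 classes, with log2 differences of 1.54 against Npy nuclei, 1.89 against dynorphin or galanin nuclei and 1.11 against Nxph1 and Pax8 nuclei, and it was 1.05 above excitatory nuclei. Kcns3 gave 1.71 against Npy nuclei, 1.97 against Nxph1 and Pax8 nuclei and 1.25 above excitatory nuclei; it was at 0 in 3 of 4 dynorphin or galanin libraries, and no fold is given there. Rbm20 gave 2.61, 1.53 and 1.45, and 1.49 above excitatory nuclei, and each of these values was called by edgeR. Rorb, a nuclear receptor of dorsal horn inhibitory neurons, gave -0.83, -2.15 and -0.84 against the inhibitory classes but 0.41 against excitatory nuclei, all called. Chrm3 gave -1.48 and -1.61 against the Npy and the Nxph1 and Pax8 nuclei, both called, while -0.51 against dynorphin or galanin nuclei and -0.08 against excitatory nuclei were not called.

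Leiden clustering of the glycinergic nuclei of all libraries together gave 8 groups, described here by their leading genes with no test. Group 1 held 353 nuclei led by Etl4, Rbm20, Ccdc171, Ndst4 and Lgr5, with Esrrg at 1077 CPM and Gad1 at 19.1 CPM. Group 3 held 288 nuclei led by Rorb, Actb, Rpl23, Actg1 and the somatostatin gene Sst, and group 5 held 180 led by Cpne8, Gm20754, Klhl1, Zfp804b and Kcnt2. Group 6 held 70 nuclei led by Ankfn1, Arhgap6, Gm15261, B230216N24Rik and Ebf1. Group 2 (188 nuclei) was led by Prr5l, the myelin gene Mbp, St18, Sec14l5 and 1700047M11Rik, and group 4 (50 nuclei) by the glutamate transporter gene Slc1a2, Nhsl1, Gm6145, Gli3 and Acsbg1. In group 2, 73.4% of nuclei had 5 or more astrocyte and oligodendrocyte marker UMIs and 27.7% were marked as doublets, and in group 4 both shares were 32.0%, against 2.83% and 0.283% in group 1.

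The 2 remaining groups stood at opposite ends of the inhibitory genes. Group 7 (82 nuclei) was led by Sema3e, Kcnh8, Itga8, Dpf3 and Tll1, and had Pax2 at 487 CPM, Gad1 at 212 CPM and Htr2c at 117 CPM, with a UMI of Gad1, Gad2 or Slc32a1 in 57.3% of nuclei. Group 8 (34 nuclei, median depth 4383 UMIs, 32.4% with 5 or more glial marker UMIs) was led by Sntb1, Piezo2, Eps8, Nr5a2 and 2610307P16Rik, and had Pax2 at 25.03 CPM, Gad1 at 18.8 CPM and Htr2c at 2484 CPM. Reln, which encodes the secreted protein reelin, was at 1245 CPM in group 8 and Nos1, the neuronal nitric oxide synthase, at 282 CPM. In group 8, 76.5% of nuclei had 3 or more Slc6a5 UMIs and 20.6% had a UMI of the GABA genes. Its Pax2 level rested on 4 UMIs and its Gad1 level on 3, with 4 UMIs of Slc32a1 and 1 of Gad2. Both the Pax2 and the Gad1 level lie within the library spans of the Slc17a6 nuclei given above. These 2 genes therefore do not set group 8 apart from excitatory nuclei. These 34 nuclei carried 82.8% of the Sntb1, 73.6% of the Piezo2 and 67.8% of the Eps8 UMIs of all glycinergic nuclei. Sntb1 was at 995 CPM inside against 9.04 CPM outside, Piezo2 at 1045 against 16.4 CPM and Eps8 at 776 against 16.2 CPM, so that outside group 8 these 3 genes stood below the mean of the other inhibitory nuclei, which spanned 7.44 to 37.3 CPM for Sntb1, 15.2 to 22.9 CPM for Piezo2 and 7.60 to 28.3 CPM for Eps8 by library.

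Across libraries, group 3 made up 18.8% of the glycinergic nuclei in KO SNI (14.3% to 23.9%), 36.8% in WT SNI (31.6% to 42.1%), 20.3% in KO naive (16.5% to 24.6%) and 12.9% in WT naive (8.80% to 18%), and the interval of WT SNI overlaps none of the others. Actb, which is among the leading genes of group 3, is on the list of cytoplasmic transcripts, whose summed level in the glycinergic nuclei was 2211 CPM in KO SNI, 2724 CPM in WT SNI, 2004 CPM in KO naive and 1790 CPM in WT naive; their part in the share was not tested. Group 1 made up 33.9%, 24.4%, 22.3% and 38.2%, and group 8 made up 1.44%, 3.24%, 3.23% and 2.67% of the KO SNI, WT SNI, KO naive and WT naive nuclei, with overlapping intervals for group 8.

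**Figure D3:**
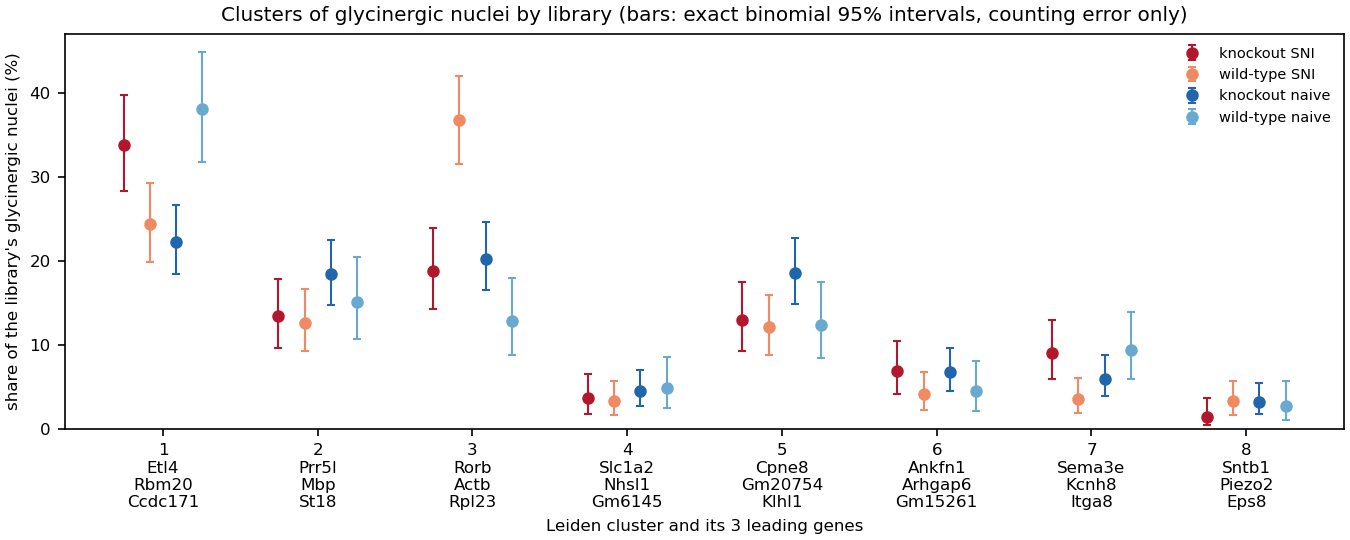
Share of each library's glycinergic nuclei (%, linear axis) in the 8 Leiden groups, named by their 3 leading genes, for KO SNI, WT SNI, KO naive and WT naive from left to right. Bars are exact binomial 95% intervals, and group 3 stands at 36.8% in WT SNI against 12.9% in WT naive.

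Between genotypes, Pdzrn3 and Fbxo8 were among the genes higher in the knockout in both pairs of libraries and D930007P13Rik among those lower, with no test possible. Among genes with 50 or more UMIs over a pair, a ratio of 1.5-fold or more was reached by 169 of 6214 genes higher (2.72%) and 350 lower (5.63%) in KO SNI against WT SNI. In KO naive against WT naive, 506 of 6150 genes were higher (8.23%) and 560 lower (9.11%). Counting intervals that leave out 0 on the same side in both pairs were found for 152 of 5790 genes that were higher (2.63%) and 54 that were lower (0.933%) in the knockout. Between genotypes the median ratio of all genes was 0.0086 in the SNI pair and 0.0682 in the naive pair, on the log2 scale.

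Pdzrn3, a ubiquitin ligase of synapses, was at 89.3 CPM in KO SNI against 42.9 CPM in WT SNI and 91.3 CPM in KO naive against 52.4 CPM in WT naive. Its log2 ratios were 1.06 (0.51 to 1.62) and 0.80 (0.26 to 1.37), beside 0.31 and 0.59 in all other kept nuclei. Fbxo8, an F-box protein, was at 79.1 against 42.9 CPM and 78.4 against 41.6 CPM, with ratios of 0.88 (0.32 to 1.46) and 0.91 (0.31 to 1.55), beside 0.04 and 0.56 in other nuclei. The other 6 named genes that were higher in the knockout were Cfap54, a protein of cilia (0.86 and 1.06), Plekhg1 (0.76 and 1.06), Znrf3, which removes Wnt receptors (0.67 and 0.68), the chromatin organiser Satb1 (0.80 and 0.67), Plppr5 (0.79 and 0.63) and the chromatin remodeller Smarcad1 (0.62 and 0.74), for the SNI and the naive pair. The smaller ratio of Plekhg1, that of the SNI pair, turned to -0.11 with nuclei thinned to 1000 UMIs. With the same thinning the naive ratio of Fbxo8 was 0.19, that of Plppr5 0.31 and that of Smarcad1 0.45, and the SNI ratios of Cfap54, Znrf3 and Plppr5 were 0.30, 0.30 and 0.35. With 3 or more Slc6a5 UMIs the SNI ratio of Znrf3 was 0.31.

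D930007P13Rik, a long non-coding RNA, was at 63.8 CPM in KO SNI against 136 CPM in WT SNI and at 56.8 CPM in KO naive against 119.5 CPM in WT naive. Its ratios were -1.09 (-1.58 to -0.62) and -1.07 (-1.55 to -0.60), beside -0.62 and -0.94 in other nuclei, so it was lower in the other nuclei as well. Gm48321, annotated antisense to the thyroid receptor gene Thrb, was at 19.1 against 42.9 CPM and 16.4 against 43.0 CPM (-1.16 and -1.39). Slc16a11, a monocarboxylate transporter family member, was at 19.1 against 44.7 CPM and 24.1 against 53.7 CPM (-1.22 and -1.16). The others were Ecsit, a mitochondrial assembly factor (-1.02 and -1.27), Nit1 (-0.98 and -0.95), Lage3 (-0.90 and -1.34), the spliceosome protein Snrpf (-0.86 and -0.88) and the centrosome protein Cep68 (-0.86 and -0.87). With 3 or more Slc6a5 UMIs the ratios of both Gm48321 and Lage3 were -0.25 and -0.54, and after thinning the naive ratio of Ecsit was -0.23 and the SNI ratios of Nit1 and Lage3 -0.47 and -0.59. In the naive pair the other kept nuclei were also lower for all 8, from -0.40 for Cep68 to -1.5 for Gm48321. In the SNI pair they ranged from -0.62 for D930007P13Rik to 0.00 for Cep68. Gm48321 overlaps Thrb, D930007P13Rik overlaps Gm49477, Ecsit overlaps Gm16845, Nit1 overlaps Dedd and Snrpf overlaps Ccdc38, all on the opposite strand; the strand setting of the counting is not given, so reads of such partners cannot be told apart. The class contrast has the same limit for Gad1 (Gad1os), Slc32a1 (Gm14205), Rbm20 (Gm16298 and Gm16299), Kcns3 (Gm48088), Lgr5 (A930009A15Rik), Stac (Gm43236), Baiap3 (Tsr3) and Gm15270 (Ccn2). The limit also holds there for Esrrg (Gm36388 and 9330162B11Rik), Pax2 (Gm20395 and 1700039E22Rik), Phldb2, Slc24a4, Plch1, Gpc3 and Hmga2. Between genotypes it holds for Pdzrn3 (Gm43948 and Gm26911) and Plekhg1 as well. On the same strand, Poln overlaps Haus3, Ccdc171 overlaps Gm27046, Gm15270 overlaps Gm6893, Fbxo8 overlaps Gm2767 and Snhg3 overlaps Rcc1.

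**Figure D4:**
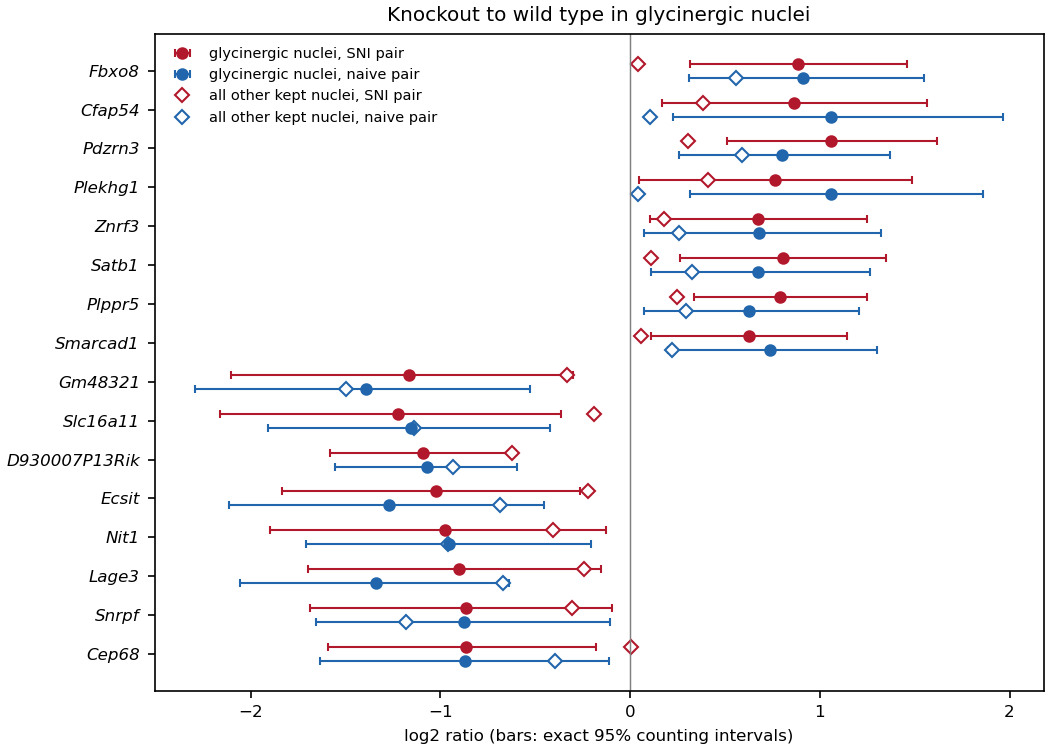
Log2 ratio of knockout to wild type for the 16 genes chosen by the naming rule, in glycinergic nuclei (filled circles, bars are exact 95% counting intervals) and in all other kept nuclei (open diamonds), with the SNI and the naive pair in separate colours. Both circles of Pdzrn3 (1.06 and 0.80) lie right of 0 and both of D930007P13Rik (-1.09 and -1.07) left of it.

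Gad1 was at 58.7 CPM in KO SNI and 37.5 CPM in WT SNI (0.65, 0.01 to 1.28), and at 40.5 CPM in KO naive and 55.0 CPM in WT naive (-0.44, -1.08 to 0.20). Gad2 gave 0.46 (-0.12 to 1.04) in the SNI pair and 0.20 (-0.43 to 0.85) in the naive pair, and Slc32a1 gave 0.59 (-0.11 to 1.30) and -0.07 (-0.79 to 0.66). Among these 3 GABA genes the counting interval left out 0 for Gad1 in the SNI pair alone. Slc6a5, which the rule selects, gave 0.06 and 0.23. Of the 3 subtype markers that were lower in KO SNI against WT SNI, Sst was at 76.5 against 138 CPM (-0.85, -1.31 to -0.42), Penk at 30.6 against 58.0 CPM (-0.92, -1.66 to -0.23) and the calretinin gene Calb2 at 20.4 against 37.5 CPM (-0.88, -1.81 to -0.02), out of 5 with 50 UMIs. Group 3, which Sst leads, made up 18.8% of KO SNI and 36.8% of WT SNI nuclei; its part in these ratios was not tested. In the same pair Fkbp5, a gene induced by glucocorticoids, was at 16.6 CPM in KO SNI against 52.7 CPM in WT SNI (-1.67, -2.66 to -0.79), beside -0.28 in the other kept nuclei. Of 12 clock and glucocorticoid genes with 50 UMIs in that pair, 2 were 1.5-fold higher and 2 lower, with a median of -0.16. Over all genes these shares were 2.72% and 5.63%.

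At 1 day after nerve injury, Vgf and Uchl1 were among the genes higher in both genotypes and Adarb2 and Itga8 among those lower. At 1.5-fold, 381 of 6181 genes were higher (6.16%) and 326 lower (5.27%) in KO SNI against KO naive, and 420 of 6207 were higher (6.77%) and 251 lower (4.04%) in WT SNI against WT naive. Intervals on the same side of 0 in both pairs were found for 26 of 5781 genes that were higher (0.450%) and 25 that were lower (0.432%) after SNI. The ratios of injury and of genotype are made from the same 4 libraries, so they are not separate evidence.

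The named genes that were higher after SNI include secreted and axonal proteins. Vgf, the precursor of secreted peptides induced by neuronal activity and growth factors, was at 61.2 CPM in KO SNI against 33.6 CPM in KO naive and 47.3 CPM in WT SNI against 22.8 CPM in WT naive, with log2 ratios of 0.87 (0.23 to 1.51) and 1.05 (0.24 to 1.93). In the other kept nuclei Vgf gave 0.36 and 0.98. With 3 or more Slc6a5 UMIs its wild-type ratio was 0.22. Vgf was at 97.3 CPM in group 3 and at 30.8 CPM in the glycinergic nuclei outside it. Group 3 made up 36.8% of WT SNI against 12.9% of WT naive nuclei, and 18.8% of KO SNI against 20.3% of KO naive nuclei. The part of group 3 in the Vgf ratios was not tested. Nefl, a neurofilament subunit, was at 85.5 against 53.4 CPM and 84.8 against 48.3 CPM (0.68 and 0.81), beside 1.01 and 0.64 in other nuclei, and its KO ratio turned to -0.39 when only nuclei with 3 or more Slc6a5 UMIs were kept. Uchl1, a neuronal deubiquitinase, was at 76.5 against 40.5 CPM and 71.4 against 44.3 CPM (0.92 and 0.69), beside 0.62 and 0.66. The others were Nrsn1 (0.87 and 1.60), the ribosomal protein gene Rpsa (0.80 and 1.07), Flrt3, an adhesion protein of synapses (0.78 and 1.08), 4930455C13Rik (0.97 and 0.75) and Clcn6, a chloride and proton exchanger of late endosomes (0.71 and 1.13), for the knockout and the wild type. With 3 or more Slc6a5 UMIs the ratios of Uchl1 were 0.49 and 0.32, the wild-type ratios of Nrsn1, Rpsa and 4930455C13Rik 0.56, 0.69 and 0.41, and the knockout ratio of Clcn6 0.38. Uchl1 overlaps Uchl1os, 4930455C13Rik overlaps Hbs1l and Nefl overlaps Nefm on the opposite strand, and Rpsa has many processed copies, so their counts are less certain.

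Among genes that were lower after SNI, Adarb2, a brain member of the RNA editing enzyme family, was the most abundant, at 602 CPM in KO SNI against 977 CPM in KO naive and 700.2 CPM in WT SNI against 874 CPM in WT naive. Its ratios were -0.70 (-0.86 to -0.54) and -0.32 (-0.47 to -0.17), beside -0.16 and -0.02 in other kept nuclei. Itga8, an integrin subunit, was at 21.7 against 41.3 CPM and 18.8 against 47.0 CPM (-0.93 and -1.33). After thinning the ratios of Itga8 were -0.04 and -2.72, and with 3 or more Slc6a5 UMIs -2.43 and -0.44. The wild-type ratio of Adarb2 was -0.21 without marked doublets. With 3 or more Slc6a5 UMIs its ratios were -1.55 in the knockout and -0.71 in the wild type. Adarb2 was among the leading genes of group 8. That group made up 1.44% of KO SNI, 3.24% of WT SNI, 3.23% of KO naive and 2.67% of WT naive nuclei. The part of group 8 in the Adarb2 ratios was not tested. Itga8 leads group 7, which made up 9.03% of KO SNI, 3.53% of WT SNI, 5.96% of KO naive and 9.33% of WT naive nuclei; its part in the ratio was not tested. The other 6 were Vta1, of the endosomal sorting machinery (-1.11 and -1.03), Ttc5 (-1.43 and -0.83), Rnf10 (-0.94 and -0.83), Gigyf1 (-0.65 and -0.79), Snhg3, a host of small nucleolar RNAs (-0.95 and -0.59), and Mir670hg (-0.40 and -0.68). Vta1 gave -0.24 in the knockout with 3 or more Slc6a5 UMIs and -0.16 in the wild type after thinning, Snhg3 -0.62 in the knockout after thinning, and Mir670hg -0.16 in the knockout without marked doublets and -0.30 in the wild type with 3 or more Slc6a5 UMIs.

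**Figure D5:**
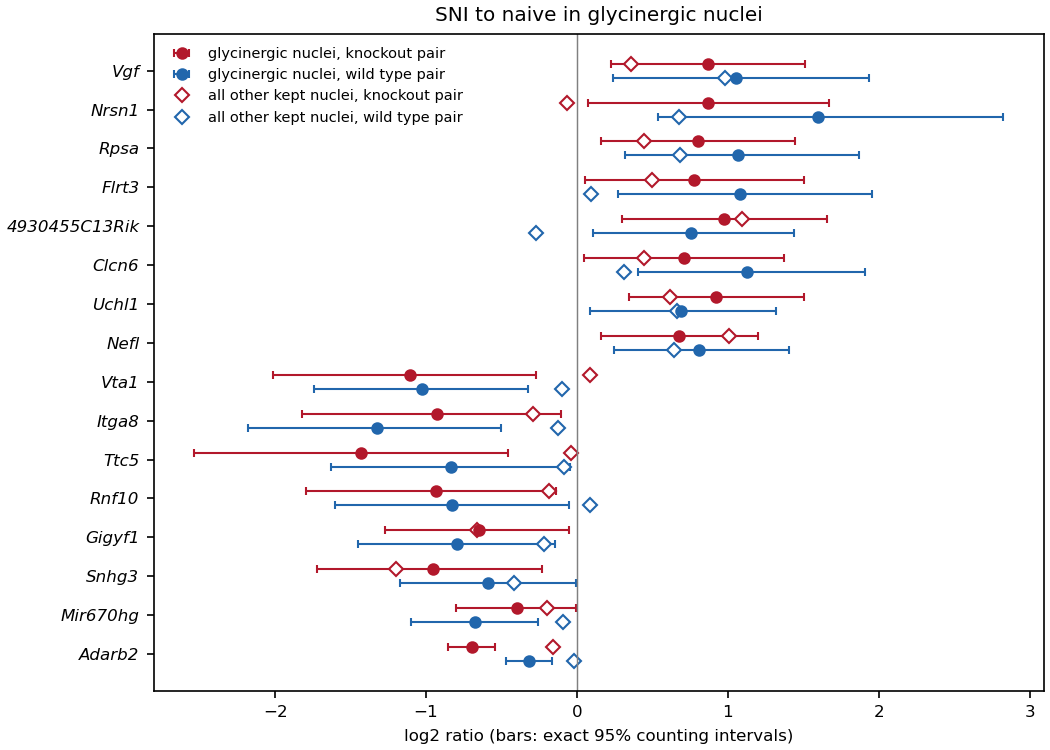
Log2 ratio of SNI to naive for the 16 genes chosen by the naming rule, in glycinergic nuclei (filled circles, bars are exact 95% counting intervals) and in all other kept nuclei (open diamonds), with the knockout and the wild-type pair in separate colours. Both circles of Vgf (0.87 and 1.05) lie right of 0 and both of Adarb2 (-0.70 and -0.32) left of it.

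The cytoplasmic and heat shock lists stood higher after injury in the wild type, and so did the other kept nuclei. Of 16 cytoplasmic transcripts with 50 UMIs in the knockout pair 0 passed 1.5-fold (median 0.20, beside 0.31 in other kept nuclei), and of 17 in the wild-type pair 11 were higher (median 0.67, beside 0.60). Tmsb4x, which binds actin monomers, was at 341 CPM in WT SNI against 145 CPM in WT naive (1.23, 0.92 to 1.56). Of 11 heat shock genes 0 were higher and 1 lower in the knockout pair (median -0.16, beside 0.09 in other nuclei), and 6 were higher in the wild-type pair (median 0.65, beside 0.54). Hsph1, a heat shock protein of the large class, was at 42.9 CPM in WT SNI against 20.1 CPM in WT naive (1.09, 0.23 to 2.03), and Hspa8 at 171 against 92.6 CPM (0.88, 0.48 to 1.30). Both lists also stood higher in KO naive than in WT naive (medians 0.30 and 0.48), and the WT naive library is in each of these ratios.

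Of the glycine and GABA-A receptor and chloride transport genes, 0 of 14 were 1.5-fold higher and 2 lower after SNI in the knockout pair, and 1 of 13 was higher and 0 lower in the wild-type pair. Over all genes these shares were 6.16% higher and 5.27% lower in the knockout pair and 6.77% higher and 4.04% lower in the wild-type pair, so that the counts of these genes and those of the excitability and glutamate receptor genes below show nothing particular to the lists. Glra2 was at 19.1 CPM in KO SNI against 37.0 CPM in KO naive (-0.95, -1.91 to -0.08), while in KO naive it stood at 37.0 CPM against 14.8 CPM in WT naive (1.33, 0.35 to 2.43). Of 29 excitability genes in the knockout pair 0 were higher and 1 lower, and of 28 in the wild-type pair 1 was higher and 1 lower. Of 21 glutamate receptor genes 0 were higher and 0 lower in the knockout pair, and 0 were higher and 1 lower in the wild-type pair, the kainate receptor subunit Grik5 at 45.6 against 81.9 CPM (-0.85, -1.41 to -0.29). Among 14 immediate early genes 1 had 50 UMIs, the scaffold gene Homer1, at 74.0 CPM in KO SNI, 75.0 CPM in WT SNI, 119.7 CPM in KO naive and 51.0 CPM in WT naive.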

How the data were processed

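The authors deposited raw UMI count matrices of 32285 genes for 4 libraries from dorsal horn nuclei captured with 10x Genomics 3' chemistry per the labels' protocols; per the file headers the software was Cell Ranger 7.0.0. The submitters' processing notes also list R 4.3.0, Seurat 4.3.0 and the build GRCm38, with no role; the sources used here do not give the intron and strand settings or the annotation release. Members, gene lists and comparisons were chosen with earlier results of these data known, and the gene lists support nothing by themselves. Whether a library pools animals is not given, so p-values measure the spread between these 4 libraries, which may be technical.

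Counts were summed per class and library and divided by the class total without mitochondrial genes (CPM). Classes were compared with edgeR 4.0.16 (R 4.3.3; filterByExpr, TMM, quasi-likelihood test, library as a block, Benjamini-Hochberg over all genes, threshold 0.05) after a test on simulated data, with DESeq2 1.42.0 as an alternative. The library is the pair of both classes by design, and the fit without that block is an alternative. Standard errors are the log2 difference over the root of the F statistic. Conditions have exact conditional binomial 95% intervals for ratios, Poisson intervals for levels and Clopper-Pearson intervals for shares, which cover counting error only. Named genes in the class contrast are the 12 highest and 12 lowest with a mean of 30 CPM or more in the higher class and 1 direction in all libraries; in the conditions they are the 8 highest and 8 lowest by the smaller ratio of both pairs, with 50 UMIs or more per pair; each list names up to 4 members. Some genes that these rules chose are not reported here. Clusters used 1500 variable genes, 15 components, 20 neighbours and resolution 0.8 (scanpy 1.11.5). Doublets were marked with scrublet in scanpy, in KO SNI above the 90th percentile of scores, and were kept in the main results. An approximate neighbour search for scrublet was replaced by an exact one because it was not repeatable between runs, and it had marked other nuclei. No background RNA was subtracted. Coordinates and overlaps come from GENCODE vM21, promoters from RefSeq.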

Additional observations from a re-analysis of the deposited data

Results flagged for a closer look

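The genotype or injury ratio had opposite signs in the 2 pairs, with both counting intervals leaving out 0 and at least 1 pair past 1.5-fold, for these 4 list genes in glycinergic nuclei. The condition on 1.5-fold was set after the data were seen, and none of these differences was tested, since each group is 1 library. Knockout to wild type, Mobp gave -0.98 in the SNI pair and 0.66 in the naive pair on the log2 scale; it encodes a myelin protein. SNI to naive, Mobp gave -0.90 in the knockout and 0.74 in the wild type, and Mog, another myelin protein gene, -0.68 and 0.68. In all other kept nuclei the median ratio of the oligodendrocyte markers was 0.01 and -0.02 for genotype (SNI and naive pair) and -0.06 and -0.07 for injury (knockout and wild type), so the swing was seen inside the glycinergic nuclei, of which 36, 65, 100 and 27 held 5 or more glial marker UMIs in KO SNI, WT SNI, KO naive and WT naive. SNI to naive, Slc12a2, the chloride importer of many cells, gave -0.68 in the knockout and 0.64 in the wild type, beside -0.24 and 0.16 in the other nuclei. Zfhx3, a homeodomain transcription factor, gave -0.52 and 0.60, beside 0.14 and 0.07, at 265 CPM in KO SNI, 395 CPM in WT SNI, 380 CPM in KO naive and 260.5 CPM in WT naive. A rule on the largest gap between the 4 libraries flagged no library for any of the genes named in the class contrast. With 4 values such a rule can miss a library that differs. The class difference of Baiap3 was -3.95 log2 units in WT naive and -1.26, -1.59 and -1.10 in KO SNI, WT SNI and KO naive. That of Sntb1 was 0.36 in KO naive and 2.31, 2.04 and 1.73 in KO SNI, WT SNI and WT naive.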

How the results depend on the processing

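For the class contrast with the other inhibitory nuclei (1061 higher and 1137 lower), DESeq2 called 390 and 373 genes, the fit with no replicate block 405 and 458, the KO SNI and WT naive libraries alone 470 and 521, nuclei thinned to 1000 UMIs 360 and 365, and a comparison class with 4 or more UMIs of the GABA genes 64 and 135. Without each library in turn the counts ran from 788 to 936 higher and from 774 to 965 lower. Against Npy nuclei (365 and 450) DESeq2 gave 148 and 195, no filter on low counts 702 and 242, no replicate block 292 lower, and leaving out each library 188 to 341 higher and 241 to 404 lower. Against dynorphin or galanin nuclei (299 and 264) DESeq2 gave 104 and 155, no filter 527 and 133, and leaving out each library 174 to 259 and 136 to 227. Against Nxph1 and Pax8 nuclei (1041 and 991) DESeq2 gave 397 and 411, no replicate block 357 and 422, and leaving out each library 768 to 902 and 738 to 882. All genes named in the class contrast kept their direction under every alternative that gave them a value. Calls lost were those of the genes named beside the stricter comparison class, and Piezo2 and Eps8 after thinning.

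Condition counts follow the UMI minimum and the number of nuclei. For KO SNI to WT SNI, a minimum of 20 UMIs gave 639 higher (6.57% of genes with enough UMIs) and 1023 lower (10.5%). With 3 or more Slc6a5 UMIs 136 were lower (5.25%) and after thinning 123 (5.23%), beside 350 (5.63%) in the main setting. The higher counts there were 159 (6.13%) and 120 (5.10%), beside 169 (2.72%). For KO naive to WT naive the minimum of 20 gave 1099 higher (11.5%) and 1309 lower (13.7%). At 3 Slc6a5 UMIs the counts were 262 (13.4%) and 117 (5.98%), and after thinning 282 (12.5%) and 136 (6.04%). The main shares were 8.23% and 9.11%, so in these last settings the higher count fell while its share rose. For SNI to naive in the knockout the same settings gave 1026 (10.7%) and 909 (9.47%), 102 (4.82%) and 148 (6.99%), and 120 (4.86%) and 173 (7.01%). The main shares in that pair were 6.16% and 5.27%. In the wild type these settings gave 1032 (10.6%) and 833 (8.60%), 193 (7.95%) and 117 (4.82%), and 152 (7.16%) and 95 (4.48%). There the main shares were 6.77% and 4.04%. The Plekhg1 ratio in the SNI pair was -0.11 after thinning and the Nefl injury ratio in the knockout -0.39 at 3 Slc6a5 UMIs; the cause was not tested. Thinning and the stricter Slc6a5 minimum also brought other ratios of named genes close to 0, among them Fbxo8 in the naive pair (0.19), Vgf in the wild type (0.22) and Itga8 in the knockout (-0.04), while others grew, such as Fbxo8 in the SNI pair (1.82 at 3 Slc6a5 UMIs). With edgeR's TMM scaling the median ratio of all genes moved by under 0.1 in each pair.

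The share of glycinergic nuclei in KO SNI, WT SNI, KO naive and WT naive was 0.269%, 0.380%, 0.216% and 0.269% at 3 or more Slc6a5 UMIs, and 6.02%, 7.41%, 8.20% and 6.18% at 1 or more. It was 0.462%, 0.462%, 0.439% and 0.421% with the rule after thinning, 1.42%, 1.60%, 1.34% and 1.54% among nuclei with 1000 UMIs and 500 genes, and 1.17%, 1.46%, 1.18% and 1.41% without nuclei of 5 or more glial marker UMIs, a setting added after the data were seen. Depth limits the genes at 10 to 20 UMIs per library, whose counting intervals span 2-fold or more. The treatment field that contradicts 2 titles would change every comparison of conditions. No paired analysis of the conditions was possible because each group is 1 library.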
